A study of Mus musculus with 36 samples.

Results

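The 9 genes described here are the hepcidin pair Hamp and Hamp2, the hepcidin-controlling ligand Bmp6 with its response genes Id1 and Smad6, the transferrin receptors Tfr2 and Tfrc, transferrin itself (Trf) and the iron exporter ferroportin (Slc40a1). They were taken by their symbols from the count tables, which list 21955 genes, and all 9 were among the 13436 genes with enough counts to be tested. Total RNA was sequenced after ribosomal RNA depletion from frozen liver of C57BL/6JN mice in a regeneration time course. Young mice were 4 months and old mice 18 months of age. Each age was sampled before and at points labelled 48, 72, 96, 120 and 240, with 3 libraries in each of the 12 groups and 36 libraries in all. The labels used here give no time unit, no means by which regeneration was induced and no sex. They name no genotype or drug, so the groups differ by age and time point, and by the spike-in RNA mix, which was one mix in all young and another in all old livers and is not analysed here. The labels call the libraries of a group separate samples without naming animals, so p-values measure the spread between these samples. Levels are given as CPM, a gene's count divided by the library total, corrected by a TMM factor, and expressed on a common per-library scale.

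Hepcidin is a peptide hormone made mainly by hepatocytes. It binds ferroportin, the only known cellular iron exporter in mammals, and causes its internalisation and breakdown, so that less iron leaves macrophages, hepatocytes and gut cells for the plasma. Hamp transcription is raised by BMP ligands, chiefly BMP6 and BMP2 from sinusoidal endothelial cells, acting through SMAD proteins on BMP-responsive promoter elements, and by interleukin-6 acting through STAT3. Id1 and Smad6 are direct targets of the same BMP signal, and the SMAD6 protein in turn dampens it. Plasma iron travels on transferrin. The receptor encoded by Tfrc takes it into cells, and its mRNA is stabilised by iron regulatory proteins when cellular iron is low, while the hepatocyte receptor encoded by Tfr2 takes part in sensing it.

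Libraries held 2328233 to 6034446 counts, with a median of 4439170. In 12 libraries, 1 in every group, summed CPM over Uty, Kdm5d, Eif2s3y and Ddx3y, which lie on the Y chromosome, exceeded Xist, a split the labels do not give. Results that rest on it are given with and without those libraries. Old 48 replicate 2 stood apart: of the 36 libraries it had the lowest summed level of 8 Kupffer cell and macrophage markers (145 CPM, against a median of 660 CPM) and of 6 markers of dividing cells (30.6 CPM, against a median of 302 CPM). It also had the highest Hamp and the lowest Slc40a1 level. All 7 hepatocyte markers looked for (Alb, Ttr, Apoa1, Apoc3, Cyp2e1, Cps1 and Serpina3k) were counted in every library, summing to 17110 to 32700 CPM. T and B cell markers summed to 0.445 to 21.1 CPM. Of 9 erythroid markers 5 were in the tables, summing to 12.4 to 35.9 CPM, and the other 4, all globin genes, were not analysed here.

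Over the time course 6 of the 9 genes changed. Averaged over both ages, Hamp2, Bmp6, Smad6 and Slc40a1 fell and Id1 and Trf rose at 48, and the same 6 genes changed in the same directions at 72. At 48 this compares with 39% of all tested genes called at an adjusted p under 0.05 (edgeR's quasi-likelihood test with Benjamini-Hochberg adjustment), and at 72 with 30.7%. At 96 Hamp2 was the only member called, lower than before, against 11.8% of all genes. At 120 Hamp2 and Bmp6 were called, both lower, against 7.32%. At 240 no member was called, against 1.12% of all genes; 3 members had an unadjusted p under 0.05, and DESeq2 called 0. The median log2 change over the 9 members at 48 was -0.09, beside a median of 0.00 over all genes tested. In bulk liver, fewer cells of a type and less RNA per cell cannot be told apart.

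**Figure D1:**
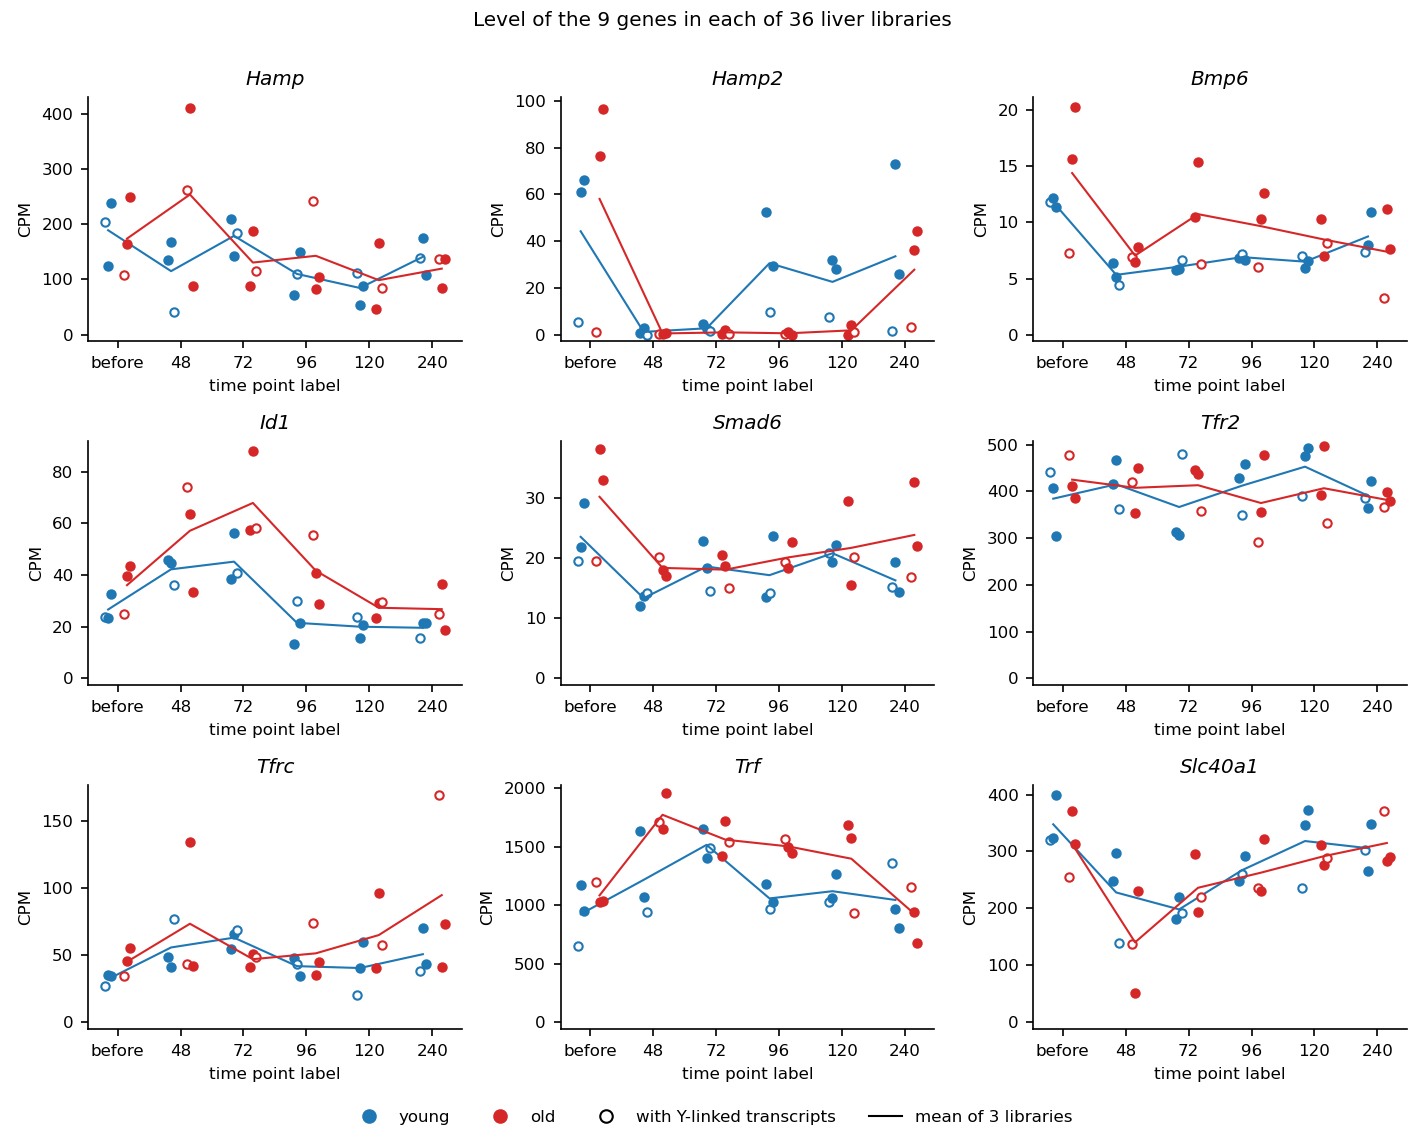
Level in CPM (vertical axis, linear, its own range in each panel) of each of the 9 genes at the 6 labelled time points, with 1 point per library, blue for young and red for old, open points for the 12 libraries with Y-linked transcripts, and lines through the means of 3 libraries. Hamp2 is near 0 at 48 and 72 at both ages, and Trf is highest in the old 48 libraries (mean 1774 CPM).

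Within young mice 3 members were called at 48 (Hamp2, Bmp6 and Smad6, lower), where 21.9% of all genes were called, and 3 at 72 (Hamp2 and Bmp6 lower, Trf higher), where 17.4% were. No member was called in young mice at 96 (1.4% of all genes), 120 (0.581%) or 240 (0.246%). At those points 1, 2 and 0 members had an unadjusted p under 0.05, and DESeq2 called 0 at each. Within old mice 5 members were called at 48 (Hamp2, Bmp6, Smad6 and Slc40a1 lower, Trf higher; 24.1% of all genes) and 2 at 72 (Hamp2 lower, Id1 higher; 12.4%). Hamp2 alone was called at 96 (6.82%) and at 120 (3.87%). At 240 no member was called (0.156%), 2 had an unadjusted p under 0.05 and DESeq2 called 0. Hamp, Tfr2 and Tfrc were called in none of the 24 comparisons made with edgeR, although alternatives called Tfrc and Hamp, as given with those genes. When only the 6 libraries of a comparison were fitted, 0 of the calls in old mice were made. Hamp2 had too few counts to be tested there at 48, 72 and 96.

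**Figure D2:**
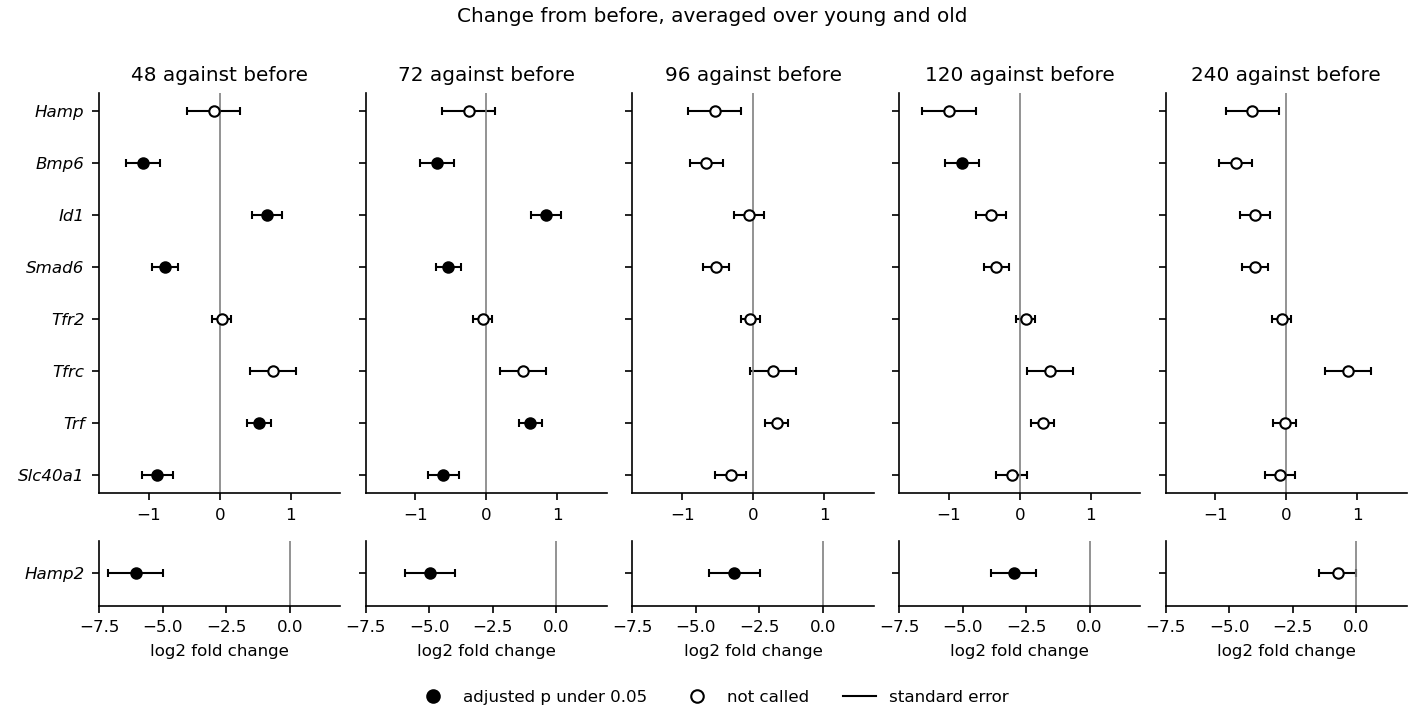
Log2 fold change from before (horizontal axes) with its standard error, averaged over young and old, at each later time point; Hamp2 has a wider axis of its own. Filled points have an adjusted p under 0.05: 6 genes at 48 and at 72, Hamp2 alone at 96, Hamp2 and Bmp6 at 120, and none at 240.

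Hamp and Hamp2 lie close together on chromosome 7, on the minus strand (GRCm38, GENCODE vM21). Hamp (ENSMUSG00000050440.8) spans chr7:30942368-30944032 and Hamp2 (ENSMUSG00000056978.8) spans chr7:30922372-30924681, both protein coding. A lincRNA on the other strand, Gm44662, overlaps both and is not analysed here. A stretch of 120 bases before each start is shown because Hamp2 was called over time and Hamp was not, while the stretches share 90.8% of their bases. Both are from RefSeq (GRCm38.p6), minus strand, 5′ to 3′, with matches to the BMP-responsive letters GGCGCC and the STAT letters TTCNNNGAA in capitals. The Hamp stretch is chr7:30944060-30944179, from 150 to 31 bases before the start, and the Hamp2 stretch is chr7:30924209-30924328, from 147 to 28 bases before it. The starts are those of RefSeq. The Hamp2 stretch lies inside the GENCODE span given for Hamp2, which begins further upstream, while the Hamp stretch lies outside that of Hamp.
Hamp: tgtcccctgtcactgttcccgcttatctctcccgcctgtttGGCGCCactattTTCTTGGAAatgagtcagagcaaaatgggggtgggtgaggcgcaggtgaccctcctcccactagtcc
Hamp2: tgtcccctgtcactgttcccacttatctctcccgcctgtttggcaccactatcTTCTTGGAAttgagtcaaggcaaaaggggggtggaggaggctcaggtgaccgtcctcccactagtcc

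Both strands were searched, and the letters GGCGCC and TTCNNNGAA do not overlap in the Hamp stretch. The STAT letters are identical in Hamp and Hamp2. The BMP-responsive letters of Hamp are broken in Hamp2 by G45A, with positions counted from 1 at the first base of the Hamp stretch. Of 32851 promoters in the RefSeq table, 9.59% hold GGCGCC and 7.02% hold TTCNNNGAA in the 250 bases before the start. Bmp6, Smad6 and Tfr2 have neither motif in their entries, and of the entries of Tfrc 1 holds GGCGCC. A match is only a match of letters.

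The mature peptide is encoded by the last coding bases of each gene, and these show how far reads of the pair can be told apart. The 75 bases are from the GRCm38 genome with GENCODE vM21, minus strand, 5′ to 3′, with bases that differ between the pair in capitals. For Hamp they are chr7:30942480-30942554 and for Hamp2 chr7:30922511-30922585.
Hamp: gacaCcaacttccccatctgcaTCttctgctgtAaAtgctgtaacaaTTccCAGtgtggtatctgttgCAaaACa
Hamp2: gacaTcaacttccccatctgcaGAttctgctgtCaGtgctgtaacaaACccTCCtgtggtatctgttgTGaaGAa

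Here 81.3% of bases were identical, against 93.6% over the coding sequence. Of the 50-base windows of the Hamp transcript 16.6% occur unchanged in Hamp2, of the 75-base windows 3.87%, and of the 100-base windows 0. Read length and the treatment of reads with several matches are not given in the sources used here, so some counts may be split between the pair, and levels of Hamp2 far below Hamp are uncertain. With the counts of both genes summed, the sum was called in 0 of the 24 comparisons; nearest was 120 over both ages (-1.17, adjusted p = 0.0583, edgeR).

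Hamp2 had the largest fold change of the 9 members at 48 and 72. In young mice before, the libraries had 5.20, 61.2 and 66.3 CPM, the first being the one with Y-linked transcripts. At 48 they had 0.654, 2.85 and 0 CPM and at 72 4.40, 2.19 and 1.53 CPM, the last of each with Y-linked transcripts. Every library at 48 and 72 was below every library before. At 96 the libraries without Y-linked transcripts were at 52.5 and 29.6 CPM and the one with them at 9.69 CPM. At 120 the values were 31.9 and 28.3 CPM without and 7.6 CPM with them, and at 240 they were 73.3 and 26.0 CPM without and 1.41 CPM with them. From 96 on, young libraries without Y-linked transcripts were thus above the 48 and 72 libraries again.

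In old mice before, Hamp2 was at 76.4 and 96.7 CPM in the libraries without Y-linked transcripts and 1.17 CPM in the one with them. At 48 the libraries had 0.405, 0.614 and 0.445 CPM, from 2, 3 and 2 counts. At 72 they had 0.410, 2.11 and 0.383 CPM. The old libraries stayed low at 96 (1.24, 0 and 0.429 CPM) and at 120 (0, 4.25 and 1.23 CPM). At 240 those without Y-linked transcripts were at 36.1 and 44.2 CPM and the one with them at 3.08 CPM. In libraries without Y-linked transcripts, values were thus low through 120 in old mice and through 72 in young mice. The test of a different time course between the ages did not call Hamp2 in the design with group means alone (adjusted p = 0.383, edgeR).

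Summed over a group and scaled by depth, Hamp2 counts before were 39.4 times those at 48 in young mice (95% counting interval 23.7 to 70.8; 545 and 15 counts) and 120 times in old mice (58.1 to 300; 771 and 7 counts). At 96 the ratio was 1.33 in young (1.17 to 1.5) and 90 in old mice (43.5 to 225). These intervals cover counting error only, and 11 of the 15 young counts at 48 and 6 of the 7 old counts at 96 came from replicate 2 of each group. The fitted log2 fold change over both ages was -6.06 ± 1.09 (-6.77 without young 48 replicate 2; SE, 6 against 6 libraries; adjusted p = 0.000114, edgeR) at 48 and -4.95 ± 0.98 (adjusted p = 0.000469) at 72. Both calls held without any single library and under each other setting that kept the pair apart, with an adjusted p of at most 0.00509 and 0.0108. Over the time points, the call at 96 (-3.48 ± 0.99, adjusted p = 0.0229) ended without young 96 replicate 2, old before replicate 3 or any of the old 96 libraries (adjusted p up to 0.0598; -4.35 without replicate 2), and when only the groups compared were fitted (0.0995). The call at 120 (-2.98 ± 0.88, adjusted p = 0.0390) ended without any of 9 libraries: young or old before replicate 2 or 3, each young 120 library, and old 120 replicate 1 or 3 (adjusted p up to 0.106). It also ended without a filter on low counts (0.0686) and with only the groups compared (0.135). Without old 120 replicate 2 it was -3.60.

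Within an age, the fall at 48 was -5.30 ± 1.46 in young (adjusted p = 0.0103), and the old libraries gave -6.81 ± 1.62 (adjusted p = 0.00379). The old call held without any single library, while the young one ended without young 48 replicate 1 (adjusted p = 0.0566) or 3 (0.0568), or with only the groups compared (0.0726). At 72 the falls were -3.96 ± 1.28 (adjusted p = 0.0346) and -5.94 ± 1.49 (adjusted p = 0.00990). The young one ended without young before replicate 2 or 3 or any young 72 library (adjusted p up to 0.114), without a filter on low counts (0.0622) or with only the groups compared (0.0866), and the old one without old 72 replicate 3 (0.0574). In old mice the fall was -6.44 ± 1.64 at 96 (adjusted p = 0.0184), ended by leaving out old before replicate 2 or 3 or any old 96 library (up to 0.0817). It was -4.99 ± 1.40 at 120 (adjusted p = 0.0441), ended by leaving out any of 16 libraries, 5 of them in the groups compared (up to 0.182). Leaving out 1 library moved these fitted folds by over 1.5 times in several cases. Without replicate 2 of the later group Hamp2 gave -6.73 in young at 48, and -7.10 at 72, -8.17 at 96 and -6.22 at 120 in old mice. Without old before replicate 3 the old folds were -6.21 at 48, -5.34 at 72, -5.84 at 96 and -4.39 at 120. Hepatocyte markers moved in part with these falls: 2 of 7 were called, both lower, at 48 over both ages (39% of all genes), with a median log2 change of -0.36. In young mice at 48 1 of 7 was called, lower (21.9% of all genes), and in old mice 5 of 7 were, 4 lower and 1 higher, with a median of -0.63 (24.1% of all genes). At 72, 96 and 120 in old mice 0 of 7 were called. The list summed to 28420 to 31920 CPM in young before against 23040 to 23420 CPM at 48. In old mice it summed to 17940 to 27480 CPM before and 21520 to 22360 CPM at 48. Their part in the fall of Hamp2 was not tested.

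**Figure D3:**
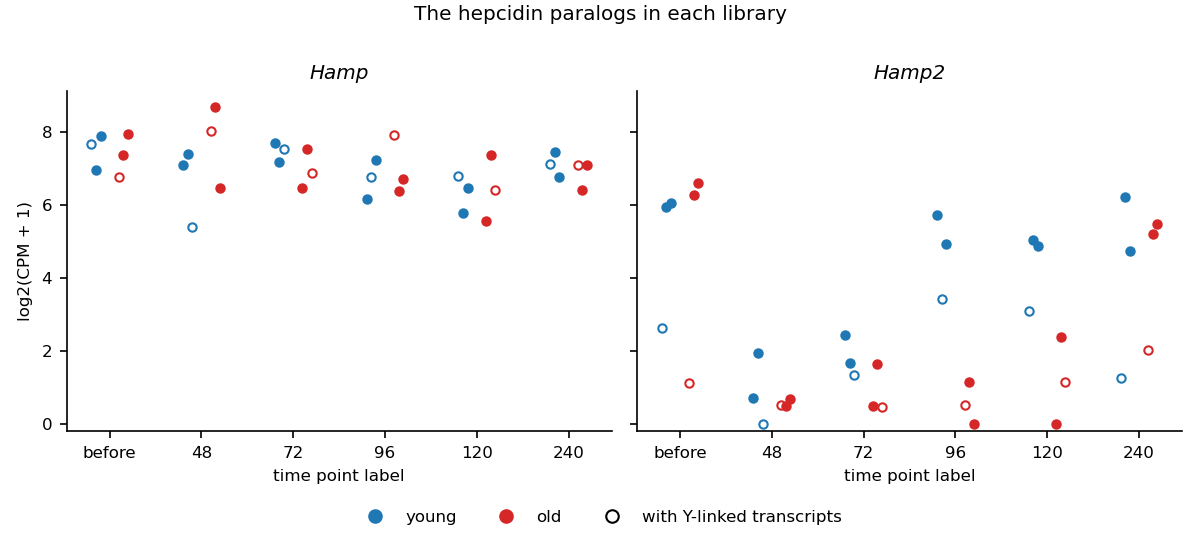
Hamp (left) and Hamp2 (right) as log2(CPM + 1) in each library at the 6 labelled time points, blue for young, red for old, open points for libraries with Y-linked transcripts. In libraries without Y-linked transcripts Hamp2 lies at 61.2 to 96.7 CPM before and at most 4.40 CPM at 48 and 72, while Hamp stays between 41.6 and 411 CPM in all libraries.

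Levels of Hamp2 did not overlap between the ages at 96 and 120. All old libraries were below all young ones at both points, with a log2 difference (old minus young) of -5.52 ± 1.66 at 96 (adjusted p = 0.125) and -3.62 ± 1.42 at 120 (adjusted p = 0.374). Neither was called by edgeR in the design with group means alone. At 96 the difference was called with a term for Y-linked transcripts (-5.91, adjusted p = 0.0101), without the libraries that carry them (-5.81, adjusted p = 0.0246, 2 against 2 libraries) and by DESeq2 (-5.70, adjusted p = 0.0101). Over all alternatives its adjusted p ran from 0.0101 to 0.416. At 120 it ran from 0.0693 to 0.655 and was never called. The test of a different time course between the ages gave an adjusted p of 0.383, with values of 0.0150 with the Y-linked term, 0.0526 without those libraries and 0.215 with DESeq2. Averaged over the time points the difference was -1.95 ± 0.69 (adjusted p = 0.0932), and it was called under the same settings, with an adjusted p of 0.00331 with the Y-linked term, 0.00743 without those libraries and 0.00755 with DESeq2.

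Libraries with Y-linked transcripts had less Hamp2. Their mean was 2.68 CPM against 26.7 CPM in the others, a log2 difference of -3.04 ± 0.41 within groups. That fit uses a single term for all groups. In old 48, old 96 and old 120, where Hamp2 counts were low, the library with Y-linked transcripts was not the lowest of its group. The split was known from earlier results of these data, so this is a description. Of all genes 8.40% were called for the split, and no other member was; DESeq2 called the same single member. Hamp2 is known as a liver transcript whose level differs between sexes and between mouse strains.

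Hamp, the paralog known to encode the iron-regulating hormone, was far more abundant and was called in no comparison. Per kilobase of exon its median level was 332 CPM against 5.08 CPM for Hamp2. In young mice the libraries had 204, 125 and 238 CPM before, 136, 167 and 41.6 CPM at 48 and 209, 143 and 184 CPM at 72. In old mice they had 108, 165 and 249 CPM before, 263, 411 and 87.3 CPM at 48 and 88.5, 187 and 116 CPM at 72. The groups overlapped at each of these points. Group means ran from 84.4 CPM (young 120) to 254 CPM (old 48). In the order of the 12 means all 11 neighbouring groups overlapped, as they also did for Bmp6, Id1, Trf and Slc40a1, which were called. Overlap of neighbours thus does not set Hamp apart. The log2 change at 48 over both ages was -0.09 ± 0.37.

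The largest time change of Hamp was at 120, where young libraries (111, 53.9 and 87.9 CPM) were all below young before. Over both ages it was -0.99 ± 0.38 (adjusted p = 0.112), not called under any alternative (adjusted p 0.0522 to 0.282). At 48 old minus young was 1.14 ± 0.53 (adjusted p = 0.180). It depended on old 48: without replicate 3, the low library, it was 1.55 and called (adjusted p = 0.0479), and without replicate 2, the library that stood apart, it was 0.59 (adjusted p = 0.682). The share of Hamp2 in the counts of the pair was 21.8% and 32.9% in young and 28.0% and 31.7% in old libraries without Y-linked transcripts before. At 48 it was 0 to 1.67% in young and 0.0984% to 0.698% in old libraries.

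Bmp6 (ENSMUSG00000039004.6, chr13:38345107-38500302, plus strand), the ligand that raises hepcidin with liver iron, fell at 48 to about 47% of its level before (ratio 0.473). Young libraries had 11.9, 12.2 and 11.4 CPM before and 6.37, 5.17 and 4.43 CPM at 48. Old libraries had 7.28, 15.6 and 20.3 CPM before and 6.89, 6.48 and 7.77 CPM at 48. The young groups did not overlap, and in old mice the before library with Y-linked transcripts lay among the 48 libraries. The change over both ages was -1.08 ± 0.24 (adjusted p = 0.000696, edgeR), with an adjusted p of at most 0.00465 over all alternatives. Within ages it was -1.13 ± 0.34 in young (adjusted p = 0.0173; 0.0893 without young 48 replicate 3) and -1.03 ± 0.33 in old mice (adjusted p = 0.0238). The old call ended without old before replicate 2 or 3 or old 48 replicate 1 or 2 (adjusted p up to 0.198) and with only the groups compared (0.164).

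In young mice every later Bmp6 library lay below the before libraries, though of the points after 48 only 72 was called. At 96 and 120 the adjusted p was 0.259 and 0.288 (edgeR). The same 3 before libraries (11.4 to 12.2 CPM) serve at each point, and the share of all genes without overlap is not given here. Young libraries had 5.74, 5.83 and 6.62 CPM at 72, 6.87, 7.22 and 6.63 CPM at 96, and 7.01, 5.93 and 6.57 CPM at 120, all under every young library before. At 240 they had 7.32, 7.96 and 11.0 CPM, again below the lowest before. Old libraries overlapped before at each later point, with 10.5, 15.4 and 6.32 CPM at 72, 6.01, 10.3 and 12.7 CPM at 96, 10.3, 6.99 and 8.19 CPM at 120 and 3.30, 11.2 and 7.65 CPM at 240. No old change after 48 was called (-0.43 ± 0.32 at 72, adjusted p = 0.407; -0.55 ± 0.33 at 96, adjusted p = 0.338), except at 120 in the libraries lacking Y-linked transcripts (-1.05, adjusted p = 0.0320). The young change at 72 was -0.96 ± 0.34 (adjusted p = 0.0495), a call that ended with total-count scaling (0.109), without a filter on low counts (0.0766) and on leaving out any of 28 libraries, all 6 of the groups compared among them (adjusted p up to 0.147). Over both ages it was -0.70 ± 0.23 at 72 (adjusted p = 0.0241) and -0.81 ± 0.24 at 120 (adjusted p = 0.0334). The call at 72 ended without young 72 replicate 1, old before replicate 3 or old 72 replicate 3 (up to 0.113), with total-count scaling (0.0721) and with only the groups compared (0.0518). The call at 120 ended without any of 10 libraries, namely each young before and each young 120 library, old before replicate 2 or 3, and old 120 replicate 2 or 3 (up to 0.134), and with total-count scaling (0.0537). At 96 it was -0.66 ± 0.23 (adjusted p = 0.0653), called with a term for Y-linked transcripts (0.0341) and without the libraries that carry them (0.0400). At 240 it was -0.72 ± 0.24 (adjusted p = 0.170). Old minus young averaged over the time points was 0.35 ± 0.14 (adjusted p = 0.141) and, without the libraries with Y-linked transcripts, 0.54 (adjusted p = 0.0131).

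Bmp6 is made in liver mainly by sinusoidal endothelium, and markers of that cell type moved too. Of 8 such markers (Stab1, Stab2, Lyve1, Clec4g, Fcgr2b, Kdr, Pecam1 and Oit3) 5 were called at 48 and 4 at 72 over both ages, all lower, with medians of -0.48 and -0.50, where 39% and 30.7% of all genes were called. They summed to 556 to 636 CPM in young before and 320 to 454 CPM in young 48, and to 459 to 666 CPM in old before and 381 to 530 CPM in old 48. Their part in the fall of Bmp6 was not tested. Bmp6 counts were low, 14 to 89 a library. The gene overlaps Txndc5 on the other strand, with 224 shared exonic bases, and use of strand in counting is not given in the sources used here, so its values are uncertain.

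Id1 (ENSMUSG00000042745.9, chr2:152736251-152737410, plus strand), a transcriptional inhibitor that BMP signalling induces, rose while Bmp6 fell. Young libraries had 23.9, 23.4 and 32.7 CPM before, 45.9, 44.5 and 36.2 CPM at 48 and 38.4, 56.1 and 41.0 CPM at 72. Old libraries had 25.1, 39.5 and 43.6 CPM before, 74.2, 63.6 and 33.5 CPM at 48 and 57.5, 88.0 and 58.2 CPM at 72. At 48 and 72 only old 48 overlapped its own before group, through replicate 3. Over both ages the rise was 0.66 ± 0.21 at 48 (adjusted p = 0.0132) and 0.83 ± 0.21 at 72 (adjusted p = 0.00316), and both calls held without any single library. In the 24 libraries lacking Y-linked transcripts the difference at 48 was 0.47 and not called (adjusted p = 0.145), and that at 72 was called. In old mice the rise at 72 was 0.91 ± 0.29 (adjusted p = 0.0410), ended by leaving out any old before library or old 72 replicate 2 or 3 (up to 0.186), and in the libraries lacking Y-linked transcripts (0.136).

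At 96, 120 and 240 the Id1 group means were 21.5, 20.0 and 19.6 CPM in young and 41.7, 27.4 and 26.8 CPM in old mice, and none was called against before. It was the only member called between the ages. Averaged over the time points, old livers had 42.8 CPM and young livers 29.2 CPM, a log2 difference of 0.55 ± 0.12 (adjusted p = 0.00682, edgeR), with 5.98% of all genes called in that comparison. The old mean was higher at 6 of 6 time points, and the groups did not overlap at 72. Without each library in turn the adjusted p was 0.00152 to 0.0138. In the fit without libraries with Y-linked transcripts it was 0.0438. The call ended under 1 other setting, the replicate block given in the closing section.

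Smad6 (ENSMUSG00000036867.7, chr9:63953076-64022059, minus strand), the inhibitory SMAD, moved the opposite way to Id1. Young libraries had 19.6, 21.9 and 29.3 CPM before and 12.1, 13.7 and 14.3 CPM at 48. Old libraries had 19.5, 38.2 and 33.1 CPM before and 20.2, 18.0 and 17.0 CPM at 48. The young groups did not overlap, and the old ones did through the before library with Y-linked transcripts. At 72 the values were 22.9, 18.5 and 14.5 CPM in young and 20.5, 18.7 and 15.1 CPM in old mice. Over both ages the change was -0.77 ± 0.18 at 48 (adjusted p = 0.00137; at most 0.00740 over all alternatives) and -0.54 ± 0.18 at 72 (adjusted p = 0.0242). The call at 72 ended without young before replicate 3, young 72 replicate 3, old before replicate 2 or 3, or old 72 replicate 3 (up to 0.0984), with total-count scaling (0.126) and in the libraries lacking Y-linked transcripts (0.0513). At 96 the change was -0.53 ± 0.18 (adjusted p = 0.0557), called by DESeq2 (0.0453). Within ages at 48 it was -0.82 ± 0.26 in young mice (adjusted p = 0.0233), against -0.72 ± 0.25 for the old ones (adjusted p = 0.0385). The young call ended without young before replicate 3 or young 48 replicate 1 or 3 (up to 0.128) and with total-count scaling (0.0564). The old one ended without old before replicate 2 or 3 or any old 48 library (up to 0.209), with total-count scaling (0.0564) and without a filter on low counts (0.0694). In old mice the change at 72 was -0.74 (adjusted p = 0.0527), called by DESeq2 (0.0459). Smad6 is also expressed in endothelium, of whose markers 5 of 8 fell as given for Bmp6, and their part was not tested.

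Tfr2 (ENSMUSG00000029716.13, chr5:137569840-137587481, plus strand), the hepatocyte iron sensor, was the steadiest member. Its 36 values ran from 292 to 497 CPM with a median of 403 CPM, and the highest group mean (young 120, 453 CPM) was 1.24 times the lowest (young 72, 367 CPM). Every neighbouring pair of groups in the order of means overlapped, as for Hamp and also for called genes such as Bmp6 and Id1. The change over both ages was 0.03 ± 0.14 at 48 and -0.05 ± 0.14 at 72 (adjusted p = 0.900 and 0.794), and old minus young averaged over time points was -0.01 ± 0.08 (adjusted p = 0.986).

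Tfrc (ENSMUSG00000022797.16, chr16:32608920-32632794, plus strand), the receptor of dividing and iron-poor cells, was higher at 48 and 72 in young mice without passing the test. Young libraries had 26.8, 35.3 and 34.4 CPM before, 49.0, 41.1 and 77.1 CPM at 48 and 54.9, 65.9 and 68.5 CPM at 72, and neither later group overlapped the first. The young difference at 72 was 0.97 (adjusted p = 0.149), called when only those groups were fitted (0.00474). In old mice 34.3, 45.4 and 55.7 CPM before overlapped 43.8, 134 and 41.9 CPM at 48 and 41.5, 50.8 and 48.8 CPM at 72. Old 240 spread most, with 169, 41.5 and 73.5 CPM. The change at 48 over both ages was 0.75 ± 0.32 (adjusted p = 0.0679). It was called with total-count scaling (0.0420), with DESeq2 (0.0408) and without old 48 replicate 1 or 3 or old 240 replicate 1 or 2 (0.0339 to 0.0499), and it was 0.39 without old 48 replicate 2 (adjusted p = 0.327). Markers of dividing cells rose at 48, 6 of 6 over both ages, beside 39% of all genes called. They summed to 42.2 to 71.2 CPM in young before and 1786 to 3408 CPM in young 48, but to 30.6 to 692 CPM in old 48. Their part in the level of Tfrc was not tested.

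Trf (ENSMUSG00000032554.15, chr9:103204001-103230444, minus strand), which encodes the plasma iron carrier secreted by hepatocytes, rose. It was the most abundant member per kilobase of exon, with a median of 359 CPM. Young libraries had 654, 1173 and 948 CPM before, 1635, 1075 and 944 CPM at 48 and 1650, 1408 and 1494 CPM at 72. Old libraries had 1197, 1025 and 1034 CPM before, 1709, 1652 and 1962 CPM at 48 and 1421, 1725 and 1539 CPM at 72. At 48 and 72 all groups but young 48 stood clear of their own before group. Over both ages the rise was 0.55 ± 0.17 at 48 (adjusted p = 0.00913) and 0.62 ± 0.17 at 72 (adjusted p = 0.00525), and both calls held under every alternative (adjusted p up to 0.0449 and 0.0225). In young mice the rise at 72 was 0.71 ± 0.24 (adjusted p = 0.035), ended without young before replicate 1 or 3 or young 72 replicate 1 or 2 (up to 0.192) and in the libraries lacking Y-linked transcripts (0.120). In old mice the rise at 48 was 0.71 ± 0.24 (adjusted p = 0.0279), ended without old before replicate 2 or 3 or old 48 replicate 3 (up to 0.0910) and with only the groups compared (0.124). Gm20425, on the same strand, overlaps Trf and is not analysed here, so shared reads are possible.

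Slc40a1 (ENSMUSG00000025993.10, chr1:45908068-45926523, minus strand), the ferroportin gene, fell. Young libraries had 321, 323 and 399 CPM before, 248, 298 and 139 CPM at 48 and 182, 221 and 192 CPM at 72. Old libraries had 254, 372 and 313 CPM before, 138, 52.3 and 231 CPM at 48 and 295, 193 and 220 CPM at 72. The 48 libraries of each age were all below their before group. Over both ages the change was -0.88 ± 0.22 at 48 (adjusted p = 0.00202) and, without old 48 replicate 2, -0.655 (adjusted p = 0.00368). The call held under every alternative, with an adjusted p of up to 0.0499. At 72 it was -0.61 ± 0.22 (adjusted p = 0.0328), ended without young before replicate 3, young 72 replicate 1 or 3, old before replicate 2 or 3, or old 72 replicate 2 or 3 (up to 0.0906). It also ended with total-count scaling (0.113), without a filter on low counts (0.0715) and in the libraries lacking Y-linked transcripts (0.128). In old mice the change at 48 was -1.16 ± 0.31 (adjusted p = 0.00779) and, without replicate 2, -0.73 (adjusted p = 0.0509). It was -1.26 in the libraries lacking Y-linked transcripts (adjusted p = 0.0505).

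Ferroportin is abundant in Kupffer cells as well as hepatocytes. The 8 Kupffer cell and macrophage markers summed to 420, 145 and 682 CPM in the old 48 libraries, against 634 to 906 CPM in old before. In young mice they summed to 473 to 647 CPM before and 450 to 630 CPM at 48. Over both ages 3 of the 8 were lower and 1 higher at 48, and in old mice 3 of the 8 were lower, against 39% and 24.1% of all genes. In the old 48 libraries the Kupffer cell and macrophage sums had the same order as Slc40a1. So did those of hepatocyte markers (21630, 21520 and 22360 CPM) and of dividing-cell markers (286, 30.6 and 692 CPM). The part of these cell types in the fall of Slc40a1 was not tested. Old minus young at 48 was -0.70 ± 0.31 (adjusted p = 0.149), with -1.26 without old 48 replicate 3 (adjusted p = 0.00473) and -0.31 without replicate 2 (adjusted p = 0.605).

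Between the ages at single time points no member was called with edgeR. Before, 0.0595% of all genes were called and 0 members had an unadjusted p under 0.05. At 48, 11.2% of all genes were called, and Hamp, Trf and Slc40a1 had an unadjusted p under 0.05. At 72 (0% of all genes, with 653 at an unadjusted p under 0.05 and 16 by DESeq2) this held for Bmp6. At 96 (0.171%) it held for Hamp2, Id1 and Trf, at 120 (0%, with 1321 at an unadjusted p under 0.05 and 39 by DESeq2) for Hamp2, and at 240 (0.0149%) for 0 members. DESeq2 called Hamp2 at 96 and no other member at a single time point. The old Trf libraries were above all young ones at 48 (0.54 ± 0.23, adjusted p = 0.141) and at 96 (0.51 ± 0.23, adjusted p = 0.347). At 48 this also held for Bmp6 (0.39) and Smad6 (0.46), and at 72 for Id1 (0.59). For Tfrc at 72 all old libraries were below the young ones (-0.42), as for Hamp2 at 96 and 120. The share of all genes without overlap between the ages is not given here. The test of a different time course between the ages called 2.76% of all genes and no member, with 0 at an unadjusted p under 0.05 and 0 by DESeq2.

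**Figure D4:**
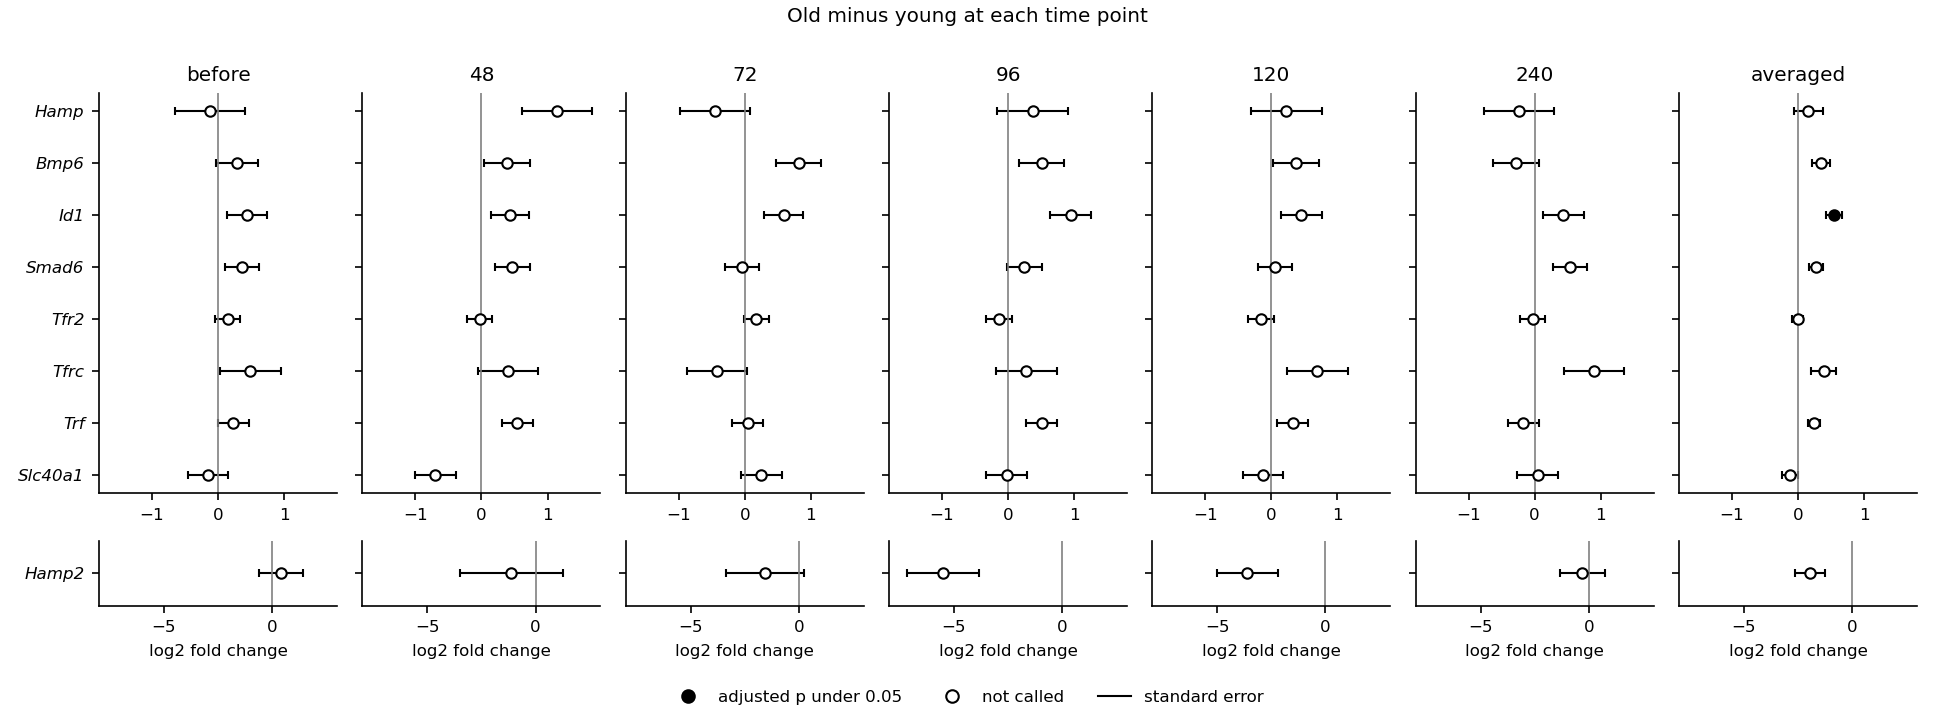
Log2 difference, old minus young, with its standard error at each labelled time point and averaged over them; Hamp2 has a wider axis of its own. The single filled point, with an adjusted p under 0.05, is Id1 averaged over the time points (0.55); Hamp2 reaches -5.52 at 96 without a call.

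Other genes of iron handling, from 6 lists, changed in both directions at 48 over both ages. The counts of called genes in these lists are read against the 39% of all genes called in that comparison, and the list medians against 0.00 for all genes. Of 21 genes of BMP and SMAD control, 6 were lower and 1 higher, a share under that of all genes, with a median log2 change of -0.13. Smad7, the inhibitory SMAD induced by the same signal, fell like Smad6 from 55.1 ± 15.0 to 30.0 ± 5.09 CPM (SD, n = 6; log2 change -0.87). The receptor gene Acvr2a fell from 100.2 ± 18.5 to 66.9 ± 5.76 CPM, and Bmp2, the other endothelial ligand, from 61.3 ± 14.2 to 41.5 ± 8.92 CPM. Fkbp1a, whose product holds BMP type I receptors inactive, rose from 35.2 ± 4.90 to 58.3 ± 15.9 CPM. Of the list, old livers had more Atoh8, a BMP-responsive factor that raises Hamp, at 48 (46.8 ± 5.72 against 23.8 ± 6.78 CPM, SD, n = 3; adjusted p = 0.00838, edgeR), and more Id4 averaged over the time points (adjusted p = 0.0235).

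Of 11 tested genes of inflammatory control, 4 were higher and 3 lower at 48 over both ages, beside 39% of all genes, with a median log2 change of 0.27. In young mice alone 2 of the 11 were called (21.9% of all genes), and in old mice 7 (24.1% of all genes). The receptor genes Il1r1 (81.0 ± 22.0 to 268 ± 228 CPM) and Il22ra1 (15.4 ± 1.45 to 41.5 ± 33.0 CPM) and Stat3 (154 ± 50.5 to 256 ± 90.6 CPM), which carries the interleukin-6 signal to Hamp, rose. For Il1r1 and Il22ra1 the spread at 48 was wide, and these rises are not given without old 48 replicate 2. Cebpa, a hepatocyte factor needed for Hamp expression, fell from 764 ± 86.5 to 332 ± 138 CPM (log2 change -1.20, adjusted p = 0.000330), and Jak2 and Il1b fell. Jak1 was higher in old than in young livers at 48, and Stat3 averaged over the time points. Il22ra1 was also higher in old livers at 48, with uneven and overlapping groups (58.1 ± 43.4 against 24.9 ± 2.75 CPM, SD, n = 3).

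Of 16 tested genes of iron uptake, storage and export, 5 were higher and 1 lower at 48, near the 39% of all genes, with a median log2 change of 0.18. Cp, the ferroxidase ceruloplasmin that works with ferroportin, rose from 662 ± 103 to 1161 ± 375 CPM, and was higher in old livers at 48 (adjusted p = 0.0128) and averaged over the time points (1030 ± 327 against 695 ± 140 CPM, SD, n = 18). Steap4, a metalloreductase gene, and Slc39a14, a zinc and iron importer gene, rose too. Slc25a37, the mitochondrial iron importer gene, fell. Of 8 genes of iron sensing 3 fell, again near 39%, with a list median of -0.03. They were Cisd1 and the iron regulatory protein genes Ireb2 (215 ± 26.5 to 143 ± 41.3 CPM) and Aco1 (188 ± 27.9 to 140 ± 26.5 CPM), whose products stabilise Tfrc mRNA. Both Ireb2 and Aco1 were also lower in old than in young livers at 48 and averaged over the time points. Hif1a was higher in old livers at 48, with uneven and overlapping groups (129 ± 109 against 54.8 ± 3.72 CPM, SD, n = 3). Of 14 genes of iron-sulfur cluster assembly Ciapin1 rose and Lyrm4 fell, fewer than the share of all genes, with a median log2 change of 0.00.

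Of 17 tested haem genes 5 were higher and 1 lower at 48, near the 39% of all genes, with a median log2 change of 0.05. Hp and Hpx, which encode the haemoglobin and haem scavengers of plasma, rose from 2302 ± 868 to 7534 ± 1184 CPM and from 1465 ± 747 to 4007 ± 557 CPM. The haem oxygenase gene Hmox1 rose and Alas1, the rate-limiting step of haem synthesis in liver, fell. The macrophage scavenger gene Cd163 was lower in old livers averaged over the time points, and Fech lower at 48. At 240 none of the 6 lists had a gene called over both ages except the BMP and SMAD list, with 1 lower, beside 1.12% of all genes.

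Genes with the most similar profile to a member were sought by Pearson's r of log2(CPM + 1) over the 36 libraries, which share groups and the Y-linked split, and these are descriptions. For Hamp2 they were Chd9 (0.853) and Ugt1a5 (0.838). For Slc40a1 they were Echdc3 (0.886), Pbld2 (0.885) and Pigr (0.883), and for Id1 Crat (0.818), Actn4 (0.777) and St5 (0.768). For Hamp the highest r was 0.611, with Itga2, followed by Pcm1 (0.607) and Noxo1 (0.6). For Tfrc they were Nolc1 (0.726), Ddx21 (0.668) and Nus1 (0.663), and for Tfr2 Kng1 (0.726) and Fbp1 (0.667). Among the 9 members, the pairs with r of at least 0.5 in size were Hamp2 and Trf (-0.603), Bmp6 and Smad6 (0.596), Id1 and Slc40a1 (-0.525) and Id1 and Trf (0.5).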

How the data were processed

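Total RNA from frozen liver was sequenced in 36 libraries after ribosomal depletion (Zymo-Seq kit), per the labels' protocols. The deposited tables hold raw read counts per gene, and per the submitters' processing notes the authors used Trimmomatic 0.39, STAR 2.7.5b, featureCounts and the GRCm38/mm10 build. Annotation, strand setting and treatment of reads with several matches are not given in the sources used here. The tables hold 27 gene symbols turned into dates and 0 spike-in rows.

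The 21955 genes were filtered with filterByExpr over the 12 groups, which left 13436. One edgeR 4.0.16 quasi-likelihood model (R 4.3.3, robust, TMM scaling, 12 group means) gave 24 comparisons. P-values were adjusted by Benjamini-Hochberg over all tested genes within a comparison, and called means an adjusted p under 0.05. Standard errors are the log2 fold change divided by the square root of F. TMM factors ran from 0.930 to 1.133, and the common biological coefficient of variation was 24.7%. The models were tested on simulated counts. Alternatives were other scalings, no filter, a replicate block, a Y-linked term, libraries left out, summed paralogs, only the groups compared, and DESeq2 1.42.0. Coordinates are from GENCODE vM21, and promoters from RefSeq, which has no entry for Id1, Trf and Slc40a1 in the table used.

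The named genes were the 9 members; from each of 6 pathway lists, up to 3 called genes higher and 3 lower with the largest changes (mean of at least 1 CPM) at 48 over both ages and between the ages at 48 and averaged; and for 6 members the 3 genes with the highest r, predicted genes left out. Some of the genes this rule names are not reported here. Members, lists and the Y-linked split were chosen with earlier results of these data known.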

Additional observations from a re-analysis of the deposited data

How the results depend on the processing

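Counts of member calls are given for each kind of comparison. Old against young gave 1 call, with 2 under a replicate block, 3 with a Y-linked term, 4 without libraries with Y-linked transcripts, 3 with DESeq2 and 1 to 3 on leaving out 1 library. Later points against before gave 6 calls in young mice (2 to 6 on leaving out 1 library). In old mice they gave 9 calls (3 to 10), with 5 when the paralogs were summed and 0 when only the groups compared were fitted, where Hamp2 could not be tested at 48, 72 and 96. Averaged over the ages they gave 15 calls (9 to 18). The test of a different time course gave 0 calls (0 to 0) and 1 with a Y-linked term. The Y-linked split gave 1 call (1 to 2) and 0 with summed paralogs. Of 266 such alternatives 244 kept the count within 1.5 times, 11 fell below and 11 rose above. Of 3424 alternatives for 77 single-gene results, 3217 kept direction and call, 154 lost the call, 52 gained it and 1 reversed. That one was Bmp6 between the ages averaged over the time points, 0.35, and -0.0195 under the replicate block. The cause of this reversal was not tested. A result that stayed uncalled also counts as kept, and 36 alternatives of a result leave out 1 library each. The total thus does not show how firm a single call is. Bmp6 in young mice at 72 lost its call under 30 of 45 alternatives, and Hamp2 in old mice at 120 under 18 of 44.

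Replicate numbers are not said to pair samples. Over 90 pairs of same-numbered libraries of an age the mean correlation of deviations was 0.0582 (-0.378 to 0.578), with 38 over 0.1, and 15 of 36 libraries correlated best with their own number. Under the block, calls numbered 6 in young mice, 8 in old mice, 15 over both ages, 0 for the time course and 1 for the split. The Id1 difference between the ages had an adjusted p of 0.0677 and Smad6 in old mice at 48 0.0502, while Hamp2 was called between the ages at 96 (-9.0, adjusted p = 0.013) and averaged (-4.84, adjusted p = 0.0393).

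Low counts limit Hamp2 at 48 to 120 in old mice (7 to 20 counts a group) and at 48 and 72 in young mice (15 and 38 counts a group). They also limit Bmp6 (14 to 89 a library).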
